A study of Mus musculus with 8 samples.

Results

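miR-335 is a microRNA (miRNA) made from a single hairpin that lies inside the mouse gene Mest. Its 2 mature arms, mmu-miR-335-5p and mmu-miR-335-3p, were taken by exact name from the deposited miRNA tables, where they are 2 of 1978 mature miRNAs in the count tables. The pair was selected on measured values of these libraries. Both arms rose when control cells differentiated, and mmu-miR-335-3p moved in opposite directions on knockdown of PERK at day 0 and day 3. On the same knockdown mmu-miR-335-5p rose at day 0 and was nearly unchanged at day 3. The values of those contrasts are therefore given as a description, with no test.

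Small RNA was sequenced from 8 mouse cell samples, with 1 library for each condition. Of these, 4 came from C2C12, a mouse myoblast line that fuses into myotubes when serum is lowered. They stably expressed a short hairpin RNA, either a negative control (shNC) or one that targets Perk (shPerk), and were taken at day 0 or after 3 days in differentiation medium. A further 2 were C2C12 cells with an empty vector or with a vector that overexpresses ATF4 from the EF1α promoter, kept in growth medium. The last 2 were P19, a mouse embryonal carcinoma line, with shNC or shPerk; their day and induction state are not given in the labels. Each condition was 1 stable cell population and 1 library, so the differences below compare libraries, and no p-value is given. All these tables hold miRNAs alone, so Perk, Atf4 and Mest mRNA were not measured by them.

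Mest is an imprinted gene, read from the paternal copy in the embryonic mesoderm. A hairpin in an intron is cut out of the host transcript by Drosha, trimmed by Dicer into a duplex of its arms, and 1 strand is usually kept by Argonaute while the other is degraded. The kept strand finds its messenger RNA targets mostly through the seed, bases 2 to 8. PERK is an endoplasmic reticulum kinase of the unfolded protein response, and ATF4 is the transcription factor whose translation it raises.

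The sequences are shown because the arms carry different seeds and, in these libraries, did not keep a fixed ratio. They come from RefSeq on build GRCm38.p6, with the seed in capitals for each mature arm and both arms in capitals in the hairpin, and run 5′ to 3′.
mmu-miR-335-5p: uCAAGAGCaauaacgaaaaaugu
mmu-miR-335-3p: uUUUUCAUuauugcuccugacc
Mir335 hairpin: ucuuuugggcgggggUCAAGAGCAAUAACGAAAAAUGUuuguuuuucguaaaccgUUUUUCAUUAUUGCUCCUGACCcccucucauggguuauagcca

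The hairpin of 98 bases lies on the plus strand at chr6:30741299-30741396, with the 5p arm at chr6:30741314-30741336 and the 3p arm at chr6:30741354-30741375. In the GENCODE annotation of GRCm38, Mest spans chr6:30723547-30748465 on the same strand, and the hairpin sits in an intron of 1316 bases at chr6:30740825-30742140. That intron is present in 7 of 11 annotated Mest transcripts, and 0 Mest exons overlap the hairpin. The 5p arm has 23 bases and the 3p arm 22, and the longest unbroken run of complementary bases between them is 9.

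Neither seed is shared by another mouse miRNA in the RefSeq table: 0 of the other names, of 1679 mature names in all, carry the same bases 2 to 8. Over bases 2 to 7, mmu-miR-7646-5p matches the 5p arm and mmu-miR-6986-3p matches the 3p arm. The whole arms are also far from other miRNAs, with the nearest entry 8 single-base edits from the 5p arm (mmu-miR-148a-3p) and 6 from the 3p arm (mmu-miR-7675-3p).

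Counts per library in the 4 C2C12 hairpin libraries ranged from 8800977 to 11993448 miRNA reads. Intervals below are 95% Clopper-Pearson intervals on the reads unless another kind is named. They cover counting error only, because each condition is 1 library. The reads carry no molecular identifiers and cannot be taken as independent molecules, so the intervals may be too narrow even for counting error. The other 4 libraries were deposited as RPM, that is, reads scaled to a fixed total of miRNA reads per library. The muscle miRNAs miR-206-3p, miR-1a-3p, miR-133a-3p and miR-133b-3p were detected in every C2C12 library, and all 9 embryonal markers, from the miR-302 and miR-290 clusters, were detected in both P19 libraries, at 21.0% and 44.5% of the miRNA reads with shNC and shPerk. In the 4 C2C12 hairpin libraries the same 9 markers summed to between 0 and 0.618 CPM, the count scaled in the same way.

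miR-335 was a low-abundance miRNA in C2C12 myoblasts. In control cells at day 0, mmu-miR-335-5p had 11 reads, or 0.972 CPM (0.485 to 1.74), and mmu-miR-335-3p had 26 reads, or 2.30 CPM (1.50 to 3.36). In control cells at day 3 the 5p arm had 143 reads, or 11.9 CPM (10.05 to 14.0), and the 3p arm 225 reads, or 18.8 CPM (16.4 to 21.4). Both arms stood above their day 0 intervals.

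In the PERK knockdown cells the day 0 library was already high. It held 53 reads of mmu-miR-335-5p, at 6.02 CPM (4.51 to 7.88), and 168 reads of mmu-miR-335-3p, at 19.1 CPM (16.3 to 22.2). At day 3 the arms had moved apart, with 89 reads of the 5p arm at 9.44 CPM (7.58 to 11.6) and 44 reads of the 3p arm at 4.67 CPM (3.39 to 6.27).

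Ordered by level, mmu-miR-335-3p was highest in shPerk at day 0 and in shNC at day 3, whose intervals overlapped, then lower in shPerk at day 3 and lowest in shNC at day 0, whose intervals did not overlap. For mmu-miR-335-5p the order was shNC at day 3, shPerk at day 3, shPerk at day 0 and shNC at day 0. Neighbours among the first 3 overlapped in their intervals, and shNC at day 0 stood below all of them. The highest of the 4 levels was 12.3 times the lowest for the 5p arm and 8.31 times for the 3p arm. Among the miRNAs detected in a library, the 3p arm stood at 45.1% of the ranking from the top in shNC at day 0, where 1071 were detected, and at 27.1% in shNC at day 3, where 1004 were.

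**Figure D1:**
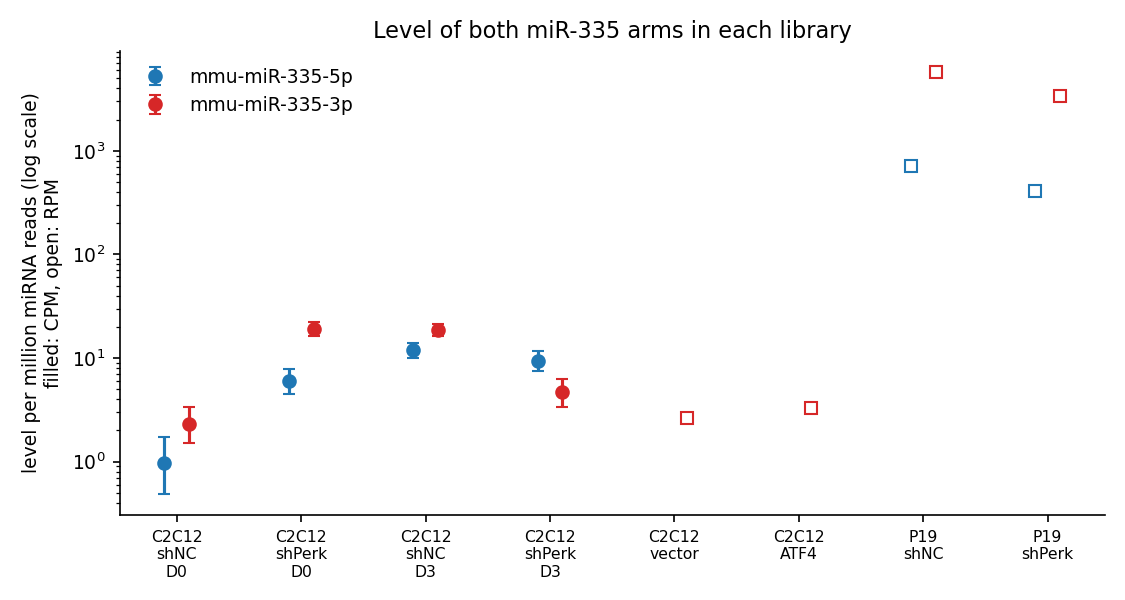
Level of mmu-miR-335-5p (blue) and mmu-miR-335-3p (red) in each of the 8 libraries, as CPM or RPM on a log axis; filled points are CPM with 95% counting intervals and open squares are deposited RPM with no interval. The P19 levels lie far above the C2C12 levels, and the 3p arm is below the 5p arm in the shPerk day 3 library alone; the 5p arm has no row in the vector and ATF4 table.

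Both arms were higher after differentiation of control cells. With trimmed mean of M values (TMM) scaling, the log2 fold change from day 0 to day 3 in shNC cells was 3.87 for mmu-miR-335-5p (3.00 to 4.92) and 3.29 for mmu-miR-335-3p (2.71 to 3.94). They ranked 7 and 10 from the highest among 593 miRNAs with at least 1 CPM in either library. The 5p arm, at 0.972 CPM at day 0, passed this filter only through the day 3 library, where it is high. Its rank is therefore no support for a rise. A miRNA was called here when its log2 fold change lay beyond 1; 12.5% of the tested miRNAs were called higher in this comparison. This contrast was used to choose miR-335, so nothing is read from the call.

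In shPerk cells the same 3 days gave another result for the 3p arm. mmu-miR-335-3p fell by 1.67 on the log2 scale from day 0 to day 3 (−2.19 to −1.19), while mmu-miR-335-5p changed by 1.005 (0.50 to 1.53), just past the limit of 1. In all, 33.9% of 573 miRNAs were past the limit in either direction in this comparison. The 5p value lay under the limit when the libraries were scaled by total counts (0.65) or by the upper quartile (0.89), and with a prior count of 2 (0.98).

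PERK knockdown at day 0 went with higher levels of both arms. The log2 fold change of shPerk against shNC was 3.18 for mmu-miR-335-3p (2.59 to 3.84) and 2.75 for mmu-miR-335-5p (1.81 to 3.85), at places 34 and 41 from the highest of 602 miRNAs. Here 15.6% of the tested miRNAs were called higher. The 5p arm, at 0.972 CPM in shNC, passed the filter of 1 CPM only through the shPerk library, so its place is no support either. At day 3, mmu-miR-335-3p was lower in shPerk, by a log2 fold change of −1.67 (−2.18 to −1.20), at place 65 from the lowest of 575 miRNAs, where 23.0% were called lower. mmu-miR-335-5p at day 3 had a log2 fold change of −0.00 (−0.40 to 0.39) and was not called, so the opposite sign at day 3 rests on the 3p arm.

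The knockdown changes at the 2 times can be set against each other within each arm. The log2 fold change at day 3 minus that at day 0 was −4.85 for mmu-miR-335-3p (−5.61 to −4.10, a normal approximation from the reads, as is the next interval) and −2.75 for mmu-miR-335-5p (−3.77 to −1.74). Over 552 miRNAs tested at both times the median of this difference was 0.05, and the arms stood at places 1 and 8 from the lowest. The rule that chose miR-335 used these same values. Among 538 miRNAs tested in all 3 hairpin comparisons, 3 were called higher at day 0 and lower at day 3: mmu-miR-335-3p, mmu-miR-3963 and mmu-miR-449c-5p. Another 4 were called the other way round, lower at day 0 and higher at day 3.

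**Figure D2:**
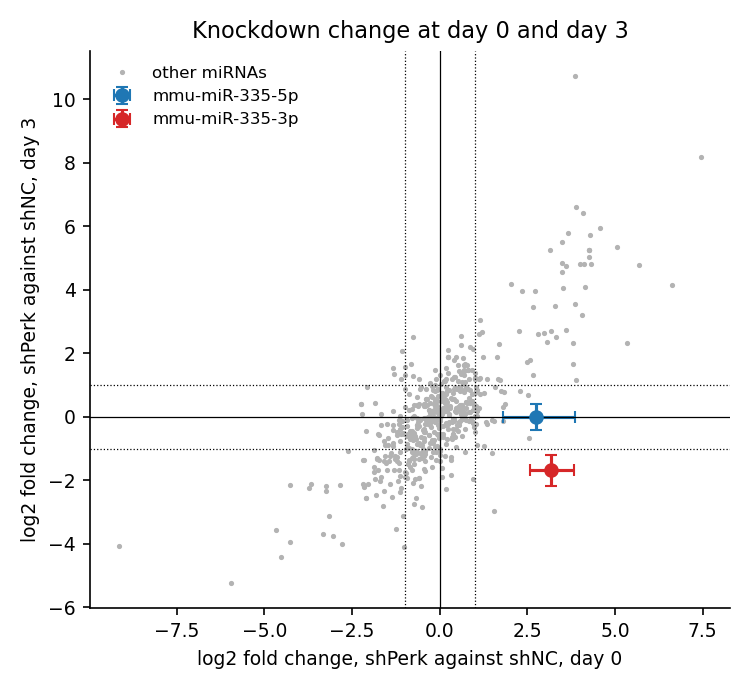
Log2 fold change of shPerk against shNC at day 0 (x axis) and at day 3 (y axis) for the miRNAs tested at both times; grey points are other miRNAs, coloured points are the arms of miR-335 with 95% counting intervals, and dotted lines mark a log2 fold change of 1 either way. Both arms lie near 3 on the x axis, with the 5p arm close to 0 and the 3p arm below −1 on the y axis.

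Of the 2 neuronal markers, miR-9-5p was higher in the knockdown libraries, while miR-124-3p was at 0 in the 4 C2C12 hairpin libraries. miR-9-5p was at 173 CPM in shNC and 2641 CPM in shPerk at day 0, and at 551 CPM and 4044 CPM at day 3. The 4 muscle markers summed to 19165 CPM in shNC and 3839 CPM in shPerk at day 0, and to 88480 CPM and 24312 CPM at day 3. The 3 mesenchymal markers stayed between 5.91% and 8.97% of the reads in these libraries. The part of these markers in the miR-335 values was not tested, and fewer cells expressing miR-335 cannot be told apart from less miR-335 per cell.

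The balance of the arms can be read within a library, free of any scaling between libraries. The 3p arm made up 70.3% of the miR-335 reads in shNC at day 0 (53.0 to 84.1), 76.0% in shPerk at day 0 (69.8 to 81.5) and 61.1% in shNC at day 3 (56.0 to 66.2). In shPerk at day 3 it made up 33.1% (25.2 to 41.8). This was the only one of the 4 libraries in which 5p was the major arm, and its interval overlapped none of the others.

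**Figure D3:**
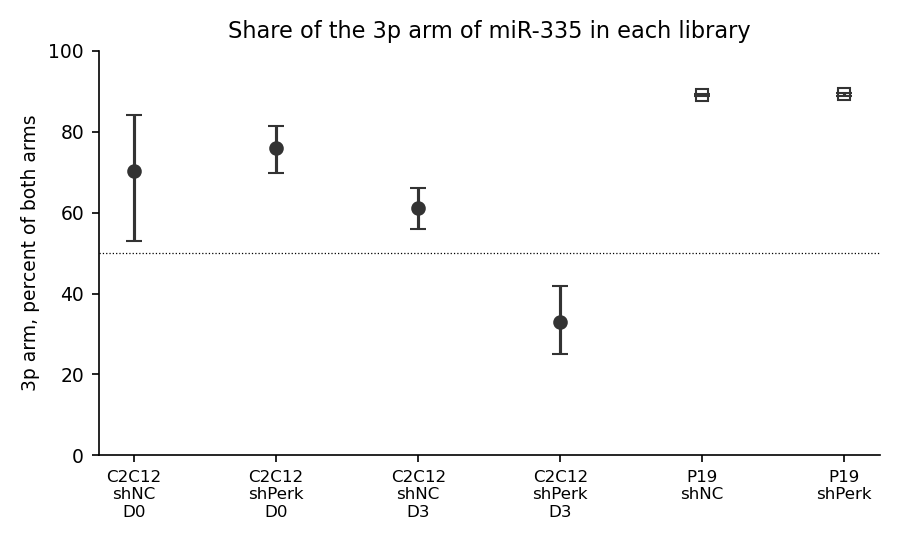
Share of the 3p arm among the reads of both miR-335 arms in each library that lists both, in percent, with 95% Clopper-Pearson intervals; filled points are read counts and open squares are P19 libraries, whose reads were estimated from the RPM steps. The shPerk day 3 library, at 33.1%, lies below the dotted line at 50, and the P19 libraries lie near 89.

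Summed over the arms, miR-335 was at 3.27 CPM in shNC at day 0, 25.1 CPM in shPerk at day 0, 30.7 CPM in shNC at day 3 and 14.1 CPM in shPerk at day 3. The sum of the mature arms was thus lowest in control myoblasts at day 0. No interval was computed for these sums, so shNC at day 3 and shPerk at day 0 are not put in order here.

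The arms of other hairpins give a background for this balance. On knockdown at day 3 the log2 fold change of the 3p arm minus that of the 5p arm was −1.67 for miR-335 (exact conditional 95% interval −2.31 to −1.04). Of 165 hairpins with both arms tested, 39.4% had arms that differed by more than 1 and 21 had a larger difference than miR-335. Most of those 21 had an arm under 10 CPM in both libraries: with both arms at 10 CPM or more in at least 1 library, 3 of 96 hairpins had a larger difference, namely miR-743a, miR-148a and miR-671. The major arm changed between the libraries for 14 of the 165 hairpins, miR-335 among them.

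In the other C2C12 comparisons the arm differences were as follows. From day 0 to day 3 in shNC cells it was −0.58 (−1.80 to 0.53), where 12.3% of 162 hairpins differed by more than 1, and on knockdown at day 0 it was 0.43 (−0.84 to 1.60), where 16.2% of 167 hairpins did. Both intervals include 0, and with 11 reads of the 5p arm in shNC at day 0 a smaller shift of the arms was not detectable at this depth. From day 0 to day 3 in shPerk cells the difference was −2.68 (−3.41 to −1.96), at place 7 of 164 hairpins, of which 29.9% differed by more than 1. The 5p arm of miR-335 was itself under 10 CPM in both of these libraries, at 6.02 and 9.44 CPM. This place therefore has no counterpart under the 10 CPM filter.

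**Figure D4:**
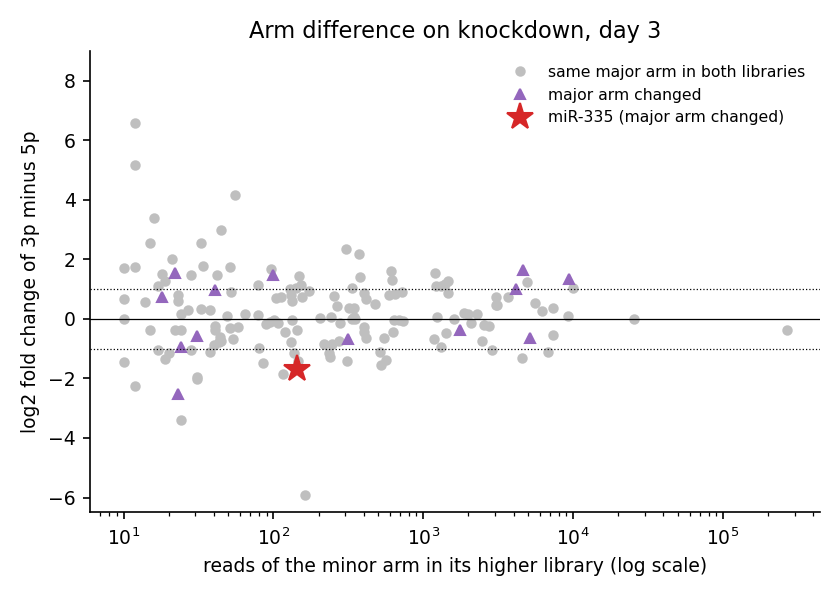
Log2 fold change of the 3p arm minus that of the 5p arm on PERK knockdown at day 3 for the 165 hairpins with both arms tested (y axis), against the smaller of the arms' highest read counts (x axis, log scale). Triangles are hairpins whose major arm changed, the star is miR-335 at −1.67, and the widest differences lie at low read counts on the left, apart from miR-743a at −5.90.

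The ATF4 and P19 pairs were not used to choose miR-335. In C2C12 cells with the empty vector mmu-miR-335-3p was at 2.65 RPM, and with ATF4 at 3.29 RPM, a log2 fold change of 0.36 that was not called, where 22.6% of 605 miRNAs were. With upper quartile scaling it was −0.0028. Low RPM values were close to whole multiples of 1 step, which puts the arm at about 28 reads with the vector and 40 with ATF4. On those reads the interval of the log2 fold change was −0.36 to 1.12, so no change was detectable at this depth. mmu-miR-335-5p has no row in this table, in which every listed miRNA reached at least 1.04 RPM in 1 or both libraries, so it is not analysed here for ATF4. Both 3p levels are near the 2.30 CPM of shNC C2C12 cells at day 0, though the tables were normalized separately.

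P19 cells held far more miR-335. mmu-miR-335-3p was at 5775 RPM with shNC and 3408 RPM with shPerk, at places 42 and 40 of the miRNAs above 0. mmu-miR-335-5p was at 712.1 RPM and 412.2 RPM, at 20.6% and 19.7% of that ranking from the top. Set beside shNC C2C12 cells at day 0, in tables normalized separately, the shNC P19 level was 2515 times higher for the 3p arm and 733 times higher for the 5p arm. Set beside shNC C2C12 cells at day 3 it was 308 and 59.7 times higher. The day 0 ratios, which rest on 26 and 11 reads in C2C12, were places 9 and 14 of 517 miRNAs with over 3 reads in that C2C12 library and a value above 0 in P19, whose median log2 ratio was 0.67.

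PERK knockdown in P19 cells left both arms close to the middle of all miRNAs. With TMM scaling the log2 fold change was −0.17 for mmu-miR-335-3p and −0.20 for mmu-miR-335-5p, against a median of −0.06 over 696 miRNAs, of which 34.6% were called. With the RPM values as deposited the arms were at −0.76 and −0.79 and the median at −0.63. The 3p share was 89.0% with shNC and 89.2% with shPerk, and the arms' log2 fold changes differed by 0.03, place 200 of 209 hairpins by size, 26.8% of which differed by more than 1. In the same libraries the embryonal markers rose from 21.0% to 44.5% of the reads and the neuronal markers went from 3557 to 1459 RPM, and their part in the miR-335 values was not tested.

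**Figure D5:**
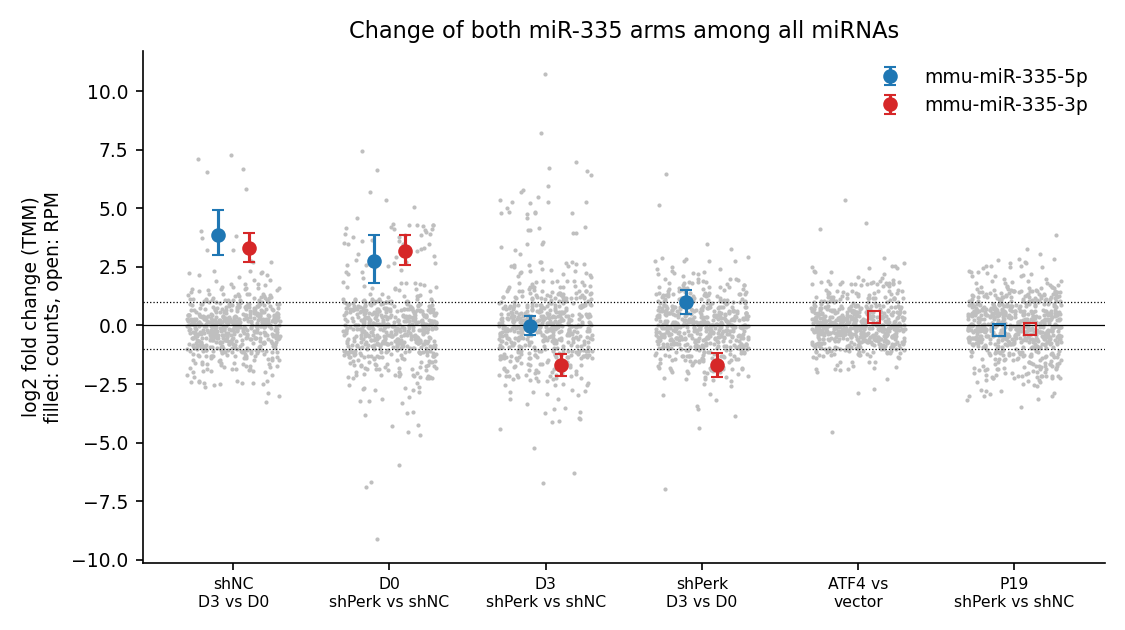
Log2 fold change of the arms of miR-335 in each of the 6 comparisons over all other tested miRNAs (grey); filled points are from counts with 95% counting intervals, open squares from RPM with none, and dotted lines mark the limit of 1 either way. Both arms are above 2.5 in the first 2 comparisons, apart from each other on knockdown at day 3 and in shPerk differentiation, and between −1 and 1 in the P19 comparison; in the ATF4 comparison the 3p arm alone is shown, at 0.36.

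miRNAs with the pattern most like that of miR-335 were sought by the distance of their log2 fold changes over the 3 hairpin comparisons, among 338 miRNAs at a mean of at least 10 CPM. The arms were 1.82 apart from each other, closer than any of these candidates was to either. miRNAs of lower level, among the 538 tested in all 3 comparisons, were not candidates. The 5p arm itself was below 10 CPM in shNC at day 0 and in both shPerk libraries. These comparisons are the ones that chose miR-335, so the distances are a description. Nearest to mmu-miR-335-5p were mmu-miR-148a-5p (distance 1.97), mmu-miR-181a-1-3p (2.29), mmu-miR-449a-5p (2.38), mmu-miR-499-5p (2.41) and mmu-miR-34c-3p (2.59). Nearest to mmu-miR-335-3p were mmu-miR-449a-5p (2.07), mmu-miR-3963 (2.35), mmu-miR-34c-3p (2.86), mmu-miR-148a-5p (2.95) and mmu-miR-34c-5p (2.98). mmu-miR-449a-5p had 55, 231, 146 and 57 reads in shNC day 0, shPerk day 0, shNC day 3 and shPerk day 3. Its CPM was highest in shPerk at day 0, then in shNC at day 3, shPerk at day 3 and shNC at day 0. For the 3p arm, shPerk at day 0 and shNC at day 3 were not separated, at 19.1 and 18.8 CPM with overlapping intervals. The knockdown change of mmu-miR-449a-5p at day 3 was −0.68 (log2).

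The muscle miRNAs, which drive and mark myotube formation, shared the rise of miR-335 in control differentiation. Of 10 tested, 9 were called higher and 0 lower, against 12.5% and 16.5% of all miRNAs. Their median was 3.47 (log2), against −0.04 for all miRNAs. mmu-miR-1a-3p went from 2487 to 207393 reads, mmu-miR-206-3p from 206961 to 802676 and mmu-miR-133a-3p from 4750 to 39096. On PERK knockdown at day 0 they went the other way from miR-335, with 6 of 8 past the limit downwards, 0 upwards and a median of −1.87, where 20.3% of all miRNAs were called lower. At day 3 on knockdown the count was 8 of 10 downwards and 0 upwards, and the median −2.11, where 23.0% of all miRNAs were called lower. In shPerk cells 8 of 8 were called higher at day 3 than at day 0, against 16.9% of all miRNAs, while mmu-miR-335-3p fell. On ATF4 3 of 7 were called higher and 0 lower, where 14.0% of all miRNAs were called higher. In P19, 3 of 4 listed were called higher on knockdown and 0 lower, at low levels, where 17.1% of all miRNAs were called higher.

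Other imprinted miRNAs were compared as a list, since Mest is an imprinted gene. At the C2C12 day 0 knockdown 9 were tested, of which 1 was called higher (15.6% of all miRNAs) and 5 lower (20.3% of all), with a median of −1.13 against −0.06 for all miRNAs. mmu-miR-675-5p, made from H19, had 721 reads in shNC and 20 in shPerk at day 0, and 326 and 17 at day 3. It was low in both shPerk libraries, whereas mmu-miR-335-3p was high in shPerk at day 0 and in shNC at day 3. mmu-miR-335-5p was at 6.02 CPM in shPerk at day 0 and 9.44 CPM in shPerk at day 3. At day 3 on knockdown 7 of 9 were called lower and 1 higher, where 23.0% and 21.9% of all miRNAs were. The lower ones were 2 arms of miR-675 from H19, 1 of miR-483 from Igf2 and 4 of miR-296 and miR-298 from Nespas/Gnas. Arms of 1 locus were counted separately throughout this list, so its members are not independent. In control differentiation 2 of 9 were called higher, both arms of miR-483 from Igf2, and 0 lower, against 12.5% and 16.5% of all miRNAs. From day 0 to day 3 they went from 16 to 64 reads (3p) and from 5 to 19 reads (5p). In shPerk differentiation 1 of 8 was called higher and 2 lower, near the 16.9% of all miRNAs called in each direction.

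The list was also counted in the ATF4 and P19 pairs. On ATF4 4 of 9 were called lower and 0 higher, both arms of miR-675 among the lower, against 8.60% of all miRNAs lower and 14.0% higher. In P19, 79 of 93 listed members were called lower on knockdown, against 17.5% of all miRNAs, and 1 higher, against 17.1%. The 17.5% are 122 miRNAs that include these 79, so that share is not a separate background. The median of the list was −1.74. Of its 93 members 87 belong to the Dlk1-Dio3 locus, as do 78 of those lower. An example is mmu-miR-127-3p, at 43643 RPM with shNC and 9452 RPM with shPerk. The arms of miR-335, at −0.17 and −0.20, were called in neither direction there. Members of that locus were, like miR-335, much higher in P19 than in C2C12: 7 could be compared, with a median log2 ratio of 13.95, against 0.67 over 517 miRNAs. These ratios rest on few C2C12 reads. Of 100 listed members 1 reached 1 CPM in shNC C2C12 at day 0 or day 3, mmu-miR-127-3p, with 18 reads at day 0.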

How the data were processed

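Small RNA libraries were made by a company by linker ligation, reverse transcription, amplification and gel selection, and the authors annotated reads with bowtie. The submitters' processing notes name the builds GRCm38 and mm10. The bowtie version, the miRNA annotation release and the handling of reads that match several miRNAs are not given in the sources used here. The authors deposited, for the 4 C2C12 libraries with a hairpin, raw read counts per mature miRNA. For the ATF4 and P19 pairs the authors deposited RPM, scaled to miRNA reads, with the smallest values above 0 at 1.04 and 1.01 RPM. The deposited fold changes, p-values and q-values are the authors' comparisons and were not used.

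Groups came from sample titles. TMM factors (edgeR 4.0.16, R 4.3.3) were computed on all miRNAs with at least 1 CPM or RPM in either library, with a prior count of 0.125 for log2 fold changes, so those of low miRNAs are understated. In RPM tables a 0 was set to 1 RPM. A miRNA was called past a log2 fold change of 1. With 1 library per condition no test was run and nothing could be paired. Intervals are counting intervals: Clopper-Pearson, exact conditional for arm differences, and a normal approximation for the difference of knockdown changes (scipy 1.17.1). The step of 1 read in an RPM column was sought among values under 8 RPM, of which 91.4% to 96.2% lay within 0.005 RPM of a whole multiple. The steps imply depths of about 10580000, 12170000, 7920000 and 4460000 reads in vector, ATF4, P19 shNC and P19 shPerk. As only part of the values came out whole, these reads were used for intervals alone. The folds, their Clopper-Pearson intervals and the step search were run on simulated data, with Poisson counts for the folds, which carry counting error only. The exact conditional and normal-approximation intervals were not simulated.

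Named miRNAs were, for each arm, the 5 nearest over the 3 deposited hairpin comparisons, miRNAs with the same seed, and, per list, the most abundant members. The members and lists were chosen with earlier results of these data known. miRNAs named outside these were chosen after their values were seen. Alternatives were other scalings (total, DESeq2 1.42.0 median of ratios, upper quartile), filters, the prior count and the value set for 0.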

Additional observations from a re-analysis of the deposited data

Results flagged for a closer look

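Changes of miR-335 had opposite signs under the same contrast in 4 cases, with counting intervals that left out 0, and none of these differences was tested, since each condition is 1 library. For mmu-miR-335-3p the knockdown change at day 3 minus that at day 0 was −4.85 (log2), which restates the values that chose miR-335. The differentiation change in shPerk minus that in shNC cells was −4.96. This is the same difference of the same 4 counts taken in another order, apart from the scaling factors, so it is no separate case. The knockdown change in P19 minus that in C2C12 at day 0 was −3.35 for mmu-miR-335-3p and −2.95 for mmu-miR-335-5p, between tables of different units. It rests on the day 0 changes, since the P19 changes of −0.17 and −0.20 were not called and lay near the median of all miRNAs of −0.06. The P19 intervals were −0.20 to −0.14 for the 3p arm and −0.27 to −0.12 for the 5p arm, on reads estimated from the RPM steps. They leave out the choice of scaling and filter, under which the 3p value ranged from −0.079 to −0.76.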

How the results depend on the processing

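Of 109 recomputed values 88 stayed within a set tolerance. For fold changes this meant the same side of the fold limit and a value within the counting interval. It was 1.5 times for counts and ranks, and a narrower factor for the highest-over-lowest levels. Of the values past the limit, 0 changed sign. The ATF4 value of mmu-miR-335-3p, which was not past it, turned from 0.36 to −0.0028 with the upper quartile. For mmu-miR-335-5p in shPerk differentiation the value fell under the limit with total counts (0.65), upper quartile (0.89) and prior count 2 (0.98). In P19 the 3p arm moved to −0.76, −0.11, −0.30 and −0.079 with the RPM as deposited, median of ratios, upper quartile and the 10 RPM filter, and the 5p arm to −0.79, −0.32 and −0.11 as deposited, with the upper quartile and with that filter. The place of the day 3 arm difference moved from 13.3% to 4.17% of hairpins at 10 CPM. Without scaling factors the median of all miRNAs shifted to −0.30, −0.19, −0.32, −0.40 and −0.63 in the shNC differentiation, day 0, day 3, shPerk differentiation and P19 comparisons, and with the upper quartile to −0.38 for ATF4. The share of higher among called miRNAs then went from 43.0% to 26.7%, 48.8% to 35.9%, 50% to 26.5% and 49.4% to 15.2% in shNC differentiation, day 3, shPerk differentiation and P19, and from 62.0% to 30.5% for ATF4. With no filter the called miRNAs in the first 4 comparisons went from 172, 216, 258 and 194 to 556, 588, 627 and 511, and with the 10 CPM filter to 90, 126, 163 and 104; for ATF4 they went from 137 to 90 with that filter and to 86 with prior count 2. The other causes were not tested. No paired analysis was possible because each condition has 1 library, and for the same reason none could be left out in turn. Depth limits the 5p arm most, at 11 reads in shNC at day 0.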
